A study of Danio rerio with 16 samples.

Results

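The 10 genes described here encode transcription factors that build and maintain skeletal muscle, measured in the fast muscle of adult zebrafish with or without swimming training. They were taken as a fixed list of symbols, and every non-control probe whose RefSeq accession mapped to one of them was counted. All 10 genes were found, with 44 of the 43803 non-control probes of the array. Those probes belong to 10 of 5952 genes that carried a RefSeq-named probe. mef2aa had 12 probes, mef2ca 12 and mef2d 13, and each of myod1, myog, myf5, myf6, srfb, six4a and pax3a had 1.

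Wild-type adult zebrafish, purchased from a shop and housed as groups in swim tunnels with 1 tunnel a group, were either exercised or kept as the non-exercised group. Exercised fish swam at a speed of 0.4 m/s for 6 h a day over 20 experimental days, and non-exercised fish stayed at 0.1 m/s. Dorsal fast muscle of 8 fish a group was hybridised in a single colour, with 1 fish on each of 16 arrays. As each group shared a tunnel, training and tunnel cannot be told apart.

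In vertebrates, the myogenic regulatory factors Myod1, Myf5, Myf6 and Myogenin are basic helix-loop-helix proteins that bind E-boxes with E-protein partners and switch on muscle genes. Pax3 and Six4, which works with Eya co-activators, act upstream of them in muscle precursors. Mef2 proteins and serum response factor are MADS-box proteins that act with the myogenic factors on contractile and metabolic genes, and in mammals Mef2 activity responds to calcium signalling and to class II histone deacetylases.

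The arrays lay on 4 slides of 4 arrays. Slides 1 and 2 held non-exercised fish and were scanned on one day, and slides 3 and 4 held exercised fish and were scanned on another, so the day of scanning and the training cannot be told apart. Between 21.1% and 54.0% of the probes of an exercised array and between 33.7% and 48.5% of a non-exercised array were well above background by the scanner's flag. Slide 4 stood apart, with 30.1% of its probes well above background against 41.2%, 42.8% and 48.3% on slides 1, 2 and 3. Its negative controls lay at −2.72 on the normalised log2 scale, against −3.80, −4.22 and −4.60. Of 11 fast muscle markers with a probe, 9 passed that flag on each of the 16 arrays. Levels are given throughout as log2 signal over the 75th percentile of the array, so 0 stands for that percentile. The median log2 fold change over all probes, detected or not, was 0.26. It was 0.03 over probes well above background on all 16 arrays, and −0.09 over those on at least 8 arrays. A member near the median of probes detected alike moved with the bulk of them.

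None of the 44 probes passed the test between exercised and non-exercised fish in either direction (limma, Benjamini-Hochberg adjusted p under 0.05 over all probes). Of all probes, 4.58% were called higher and 1.79% lower. The smallest adjusted p among the 44 was 0.0687, for the mef2d probe LOL03510. Without adjustment, 12 member probes had a p under 0.05 on the higher side and 1 on the lower side, where all probes gave 12.2% and 7.41%. On the higher side, 11 were probes of mef2d and 1 of mef2aa, so most of that count is repeat readings of 1 gene. The groups overlapped for every one of the 44 probes, and over the array 1.34% of probes showed no overlap. By the brightest probe, 0 of the 10 genes were called, where 6.22% of RefSeq-named genes were. The direction was higher for 26 probes and lower for 18, and 64.9% of all probes were higher. The median over the 44 log2 fold changes was 0.44, which counts genes with several probes more than once. Over the brightest probes of the 10 genes the median was 0.27, with 5 genes higher and 5 lower. Among the probes, mef2d stood on one side throughout and mef2ca mostly on the other, as described below.

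**Figure D1:**
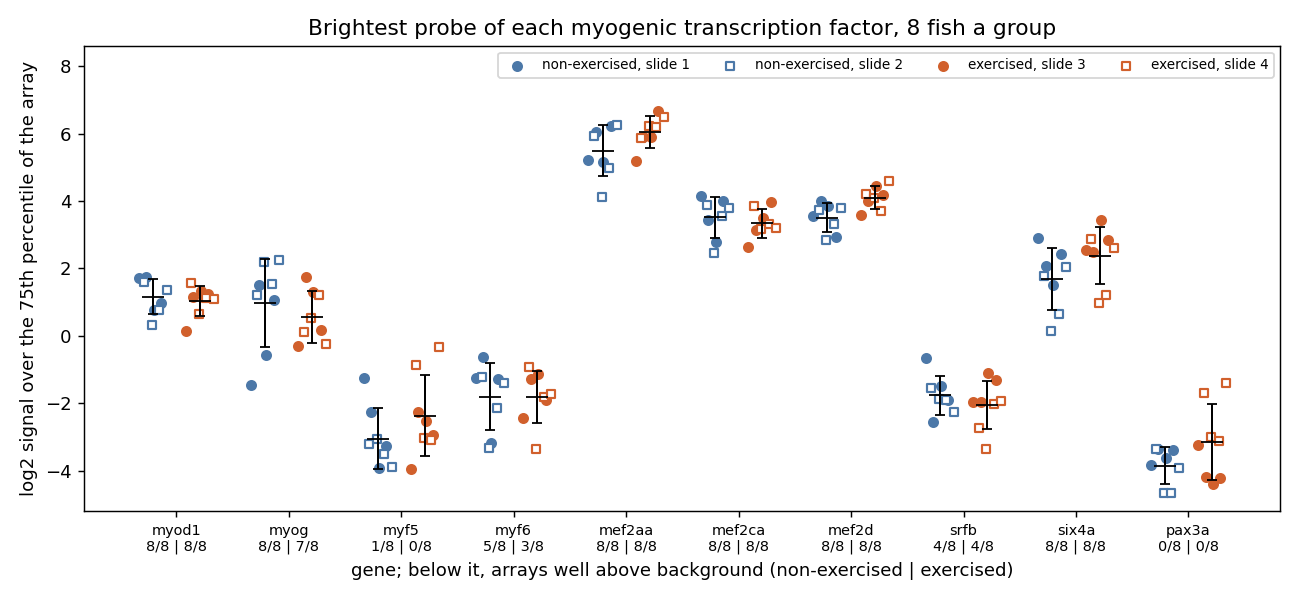
Log2 signal over the 75th percentile of the array for the brightest probe of each gene, with 1 point a fish, colours for the group, filled and open marks for its slides, and bars for the mean ± SD of 8 fish. The groups overlap for every gene; probes of different genes differ in hybridisation, so heights are compared only within a gene, and the counts under each name give the arrays well above background.

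Detection set apart which of the factors the arrays could follow. Of the 44 probes, 27 passed the background flag on each of the 16 arrays, namely 11 of 12 for mef2aa, 11 of 13 for mef2d, 3 of 12 for mef2ca, and those of myod1 and six4a. The pax3a probe was well above background on none. Detection was on fewer exercised than non-exercised arrays for 15 probes and on more for 0, where 29.1% and 15.8% of all probes fell on those sides. No member probe passed Fisher's exact test on the count of arrays (two-sided, smallest p = 0.0769), nor did any of the 43803 probes after adjustment. The missing arrays lay largely on slide 4: 6 of the dimmer mef2ca probes were above background on 0 of its 4 arrays and on 3 or 4 of the 4 arrays of slide 3. The part of the slide in this was not tested.

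Among the myogenic regulatory factors, the probe of myod1, the early determination factor, was above background on 16 of 16 arrays. Its level ran from 0.14 to 1.57 with a median of 1.13 in exercised fish, and from 0.33 to 1.74 with a median of 1.16 in non-exercised fish. Both groups covered the same range, and 3 of 8 exercised fish lay above the non-exercised mean. The log2 fold change was −0.12 ± 0.27 (SE, n = 8 and 8; limma adjusted p = 0.806), and it was 0.016 under cyclic loess scaling. The 4 slide means lay between 0.97 and 1.29, so this was the steadiest of the single-probe genes from slide to slide.

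The gene of Myogenin, the factor of terminal differentiation, varied more between fish than between groups. The myog level ran from −0.30 to 1.73 with a median of 0.34 in exercised fish, and from −1.45 to 2.23 with a median of 1.36 in non-exercised fish. The lowest and the highest of the 16 fish were both non-exercised. The log2 fold change was −0.41 ± 0.50 (n = 8 and 8; limma adjusted p = 0.677). The slides of the non-exercised group themselves averaged 0.14 and 1.79, which is a wider gap than that between the groups, and the exercised slides averaged 0.73 and 0.39.

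myf5 and myf6 were dim. Myf5 marks committed precursors and quiescent satellite cells, and Myf6 (also named Mrf4) is the factor of mature fibres. The myf5 probe was well above background on 1 array of the non-exercised fish and on 0 of the exercised fish, and no fold change is given. The myf6 probe passed the background flag on 3 arrays of exercised fish and 5 of non-exercised fish. Its level ran from −3.35 to −0.94 with a median of −1.77 in exercised fish, and from −3.34 to −0.62 with a median of −1.34 in non-exercised fish. The groups had the same range, with a log2 fold change of −0.01 ± 0.42 (n = 8 and 8; limma adjusted p = 0.988) that was 0.043 without background correction and 0.090 with normexp correction.

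The 37 probes of the mef2 genes gave the most complete picture. Each gene's probes target 1 accession, so they are repeat readings of a gene in the same fish and not replicates. Within slides, the probes of a gene varied together, with a median Pearson r between pairs of 0.90 for mef2d, 0.88 for mef2ca and 0.88 for mef2aa over 16 arrays.

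**Figure D2:**
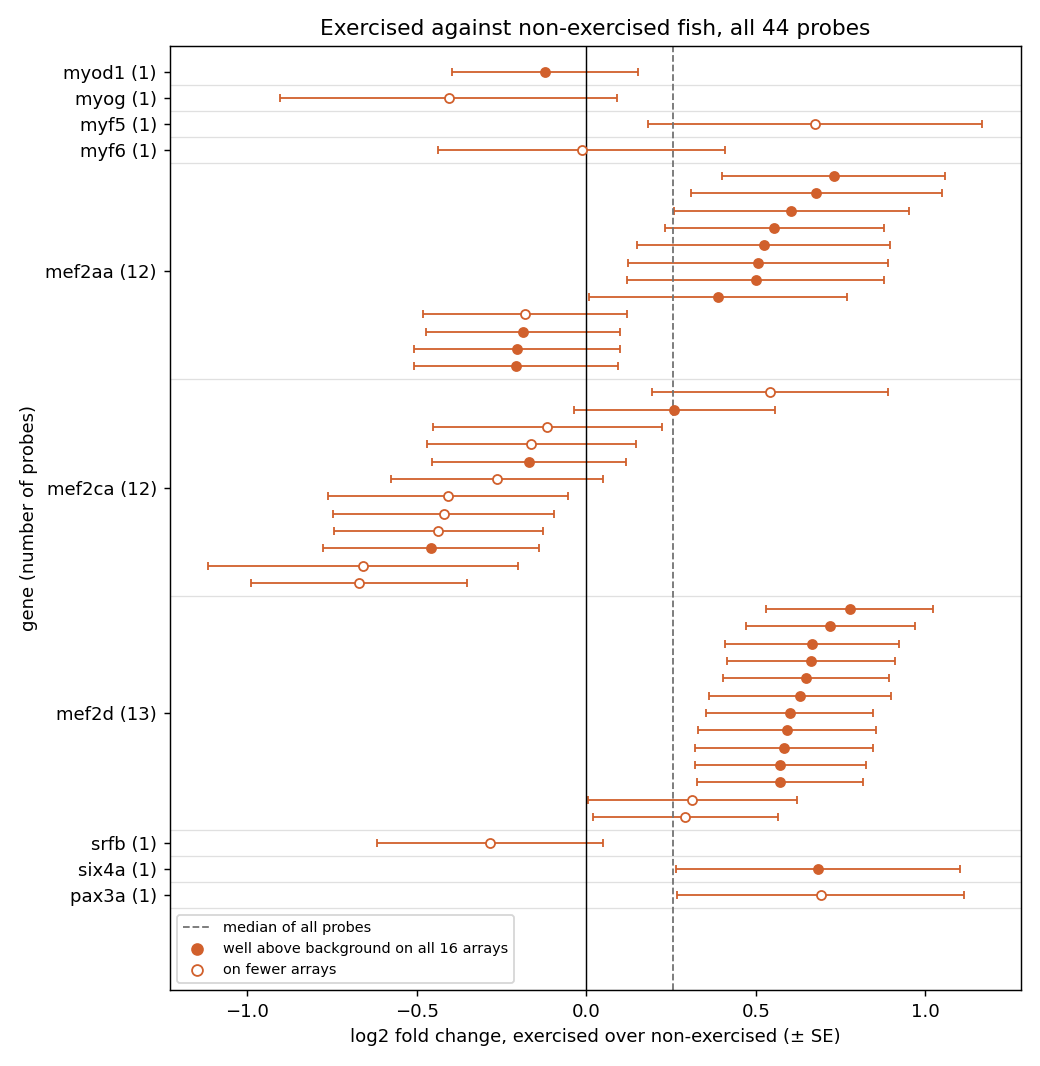
Log2 fold change of exercised over non-exercised fish with its standard error for all 44 probes, grouped by gene; filled points passed the background flag on each of the 16 arrays, and the dashed line is the median of all probes, 0.26. Over array probes that passed that flag on each of the 16 arrays, the median was 0.03. The 13 mef2d probes all lie right of 0, 10 of the 12 mef2ca probes lie left of it, and the mef2aa probes fall on both sides.

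All 13 mef2d probes were higher in exercised fish, with log2 fold changes from 0.29 to 0.78, and none passed the test. Mef2d is the family member that mammalian muscle expresses widely, with a splice form of its own in differentiated fibres. The brightest probe, A_15_P107347, ran from 3.58 to 4.61 with a median of 4.14 in exercised fish and from 2.84 to 4.01 with a median of 3.65 in non-exercised fish. All 8 exercised fish lay above the non-exercised mean and 6 lay above every non-exercised fish. Its log2 fold change was 0.60 ± 0.25, or 1.52-fold (n = 8 and 8; limma adjusted p = 0.170). The probe with the smallest p, LOL03510, ran from 1.12 to 2.35 with a median of 1.77 in exercised fish and from 0.17 to 1.47 with a median of 1.01 in non-exercised fish. Again 8 of 8 exercised fish were above the non-exercised mean, with a log2 fold change of 0.78 ± 0.25 (n = 8 and 8; limma adjusted p = 0.0687).

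The mef2d difference was present on both exercised slides. Against all non-exercised fish, the median over its probes was 0.50 for slide 3 alone and 0.75 for slide 4 alone. The medians of all probes were −0.30 and 0.61 in those fits, so on slide 4 mef2d lay closer to that median. Those medians include dim probes, and 30.1% of probes were well above background on slide 4. For all 13 probes, the means of slides 3 and 4 both lay above those of slides 1 and 2, and A_15_P107347 averaged 3.58, 3.42, 4.06 and 4.15 on slides 1 to 4. With each array shifted to its median in place of its 75th percentile, all 13 probes stayed higher, at 0.04 to 0.53. Whether mef2d passed the threshold depended on the scaling and on which probes were tested. Under quantile normalisation 6 of its probes passed, A_15_P107347 among them at 0.66 (limma adjusted p = 0.0256), where 4.06% of all probes were called higher. Under cyclic loess 8 of its probes passed, where 6.1% of all probes did. Of probes above background on all 16 arrays, 5 of the 11 mef2d probes passed, where 8.49% of the 7948 probes tested did. No mef2d probe passed under the median shift, with normexp correction, without background correction or with slide 3 as the only exercised slide, where the smallest adjusted p values were 0.222, 0.0827, 0.0612 and 0.186 (limma). With the slide as a random block, no mef2d probe passed and the smallest adjusted p was 0.693, but that fit called 0.187% of all probes higher. Without exercised fish 1, which had the lowest mean over the mef2d probes of the exercised group, 4 probes passed, where 6.58% of all probes were called higher.

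mef2ca, whose mammalian counterpart Mef2c is required for sarcomere integrity, went the other way in most probes. Of its 12 probes, 10 were lower in exercised fish, from −0.67 to −0.11 on the log2 scale, and LOL03501 and LOL03504 were higher, at 0.26 and 0.54. With normexp correction, 7 were lower and 5 higher, with a median of −0.10. None passed the test. The brightest, A_15_P107108, ran from 2.62 to 3.98 with a median of 3.25 in exercised fish and from 2.46 to 4.15 with a median of 3.68 in non-exercised fish. The groups shared nearly the whole range, with a log2 fold change of −0.17 ± 0.29 (n = 8 and 8; limma adjusted p = 0.739). LOL03502 was the one member probe with an unadjusted p under 0.05 on the lower side, at −0.67 ± 0.32 (limma adjusted p = 0.255), and it was above background on 2 of the 4 arrays of slide 4 and on all 12 other arrays.

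mef2aa split by probe. The brightest, A_15_P113710, ran from 5.18 to 6.67 with a median of 6.04 in exercised fish and from 4.12 to 6.26 with a median of 5.57 in non-exercised fish. In 7 of 8 exercised fish it lay above the non-exercised mean, with a log2 fold change of 0.56 ± 0.32 (n = 8 and 8; limma adjusted p = 0.381). With 7 others it formed a set of 8 probes that were higher, from 0.39 to 0.73, and 4 probes (LOL05094, LOL03499, LOL01250 and LOL01786) were lower, from −0.21 to −0.18. No probe of either set passed the test. The mean over the set of 8, as a difference from the non-exercised mean, averaged 0.03, −0.03, 0.18 and 0.95 on slides 1 to 4. With slide 3 as the only exercised slide, 6 of the 12 mef2aa probes were higher and 6 lower, with a median of 0.016. The probe LOL03495 carried an outlier flag in exercised fish 7 and was fitted without that spot, the only one missing among the 44 probes.

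The mef2aa sets were also more alike within than between. The median r between probes was 0.95 within the set of 8, 0.97 within the set of 4 and 0.76 between them (16 arrays, after subtraction of slide means). The set of 8 minus the set of 4, taken within each array and centred on the non-exercised mean, ran from 0.26 to 1.91 with a median of 0.66 in exercised fish and from −0.41 to 0.58 with a median of −0.01 in non-exercised fish. All 8 exercised fish lay above the non-exercised mean and 4 above every non-exercised fish. Slide means were −0.02, 0.02, 0.50 and 1.02 on slides 1 to 4. The sets were formed from the sign of this same comparison, so the gap between them has no test. All 12 probes carry 1 accession, and where on the transcript each one binds was not analysed here.

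Because an even shift of a whole array cancels between genes on it, the 3 mef2 genes were also set against each other within arrays. A difference in background, which acts more on dim probes, does not cancel in this way. Of the mef2ca probes averaged, 6 were above background on no array of slide 4. The pairs were looked at after mef2d had been seen higher and mef2ca lower, so they are a description with no test. The mean over the mef2d probes minus that over the mef2ca probes was 0.83 higher in exercised than in non-exercised fish on the log2 scale. It ran from 0.21 to 1.55 in exercised fish and from −0.94 to 0.92 in non-exercised fish, and 8 of 8 exercised fish lay above the non-exercised mean of 0, with overlap between the groups. For mef2aa minus mef2ca the difference was 0.56, with 7 of 8 exercised fish above the non-exercised mean, and for mef2d minus mef2aa it was 0.28, with 5 of 8. The mef2aa mean in these pairs averages both of its probe sets, which went opposite ways.

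By the brightest probe of each gene the differences were 0.77 for mef2d over mef2ca, 0.72 for mef2aa over mef2ca and 0.04 for mef2d over mef2aa. By the mean over probes, leaving out each fish in turn put mef2d over mef2ca between 0.70 and 0.97, and mef2aa over mef2ca between 0.48 and 0.68. By slide, also over the probe means, mef2d over mef2ca averaged −0.06, 0.06, 0.64 and 1.03 on slides 1 to 4. In the same way, mef2aa over mef2ca averaged −0.05, 0.05, 0.17 and 0.95. The brightest probes gave slide means of −0.005, 0.005, 0.76 and 0.78 for mef2d over mef2ca. For mef2aa over mef2ca they gave 0.09, −0.09, 0.62 and 0.83. Fish of a slide share its processing, and each slide held 1 group.

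**Figure D3:**
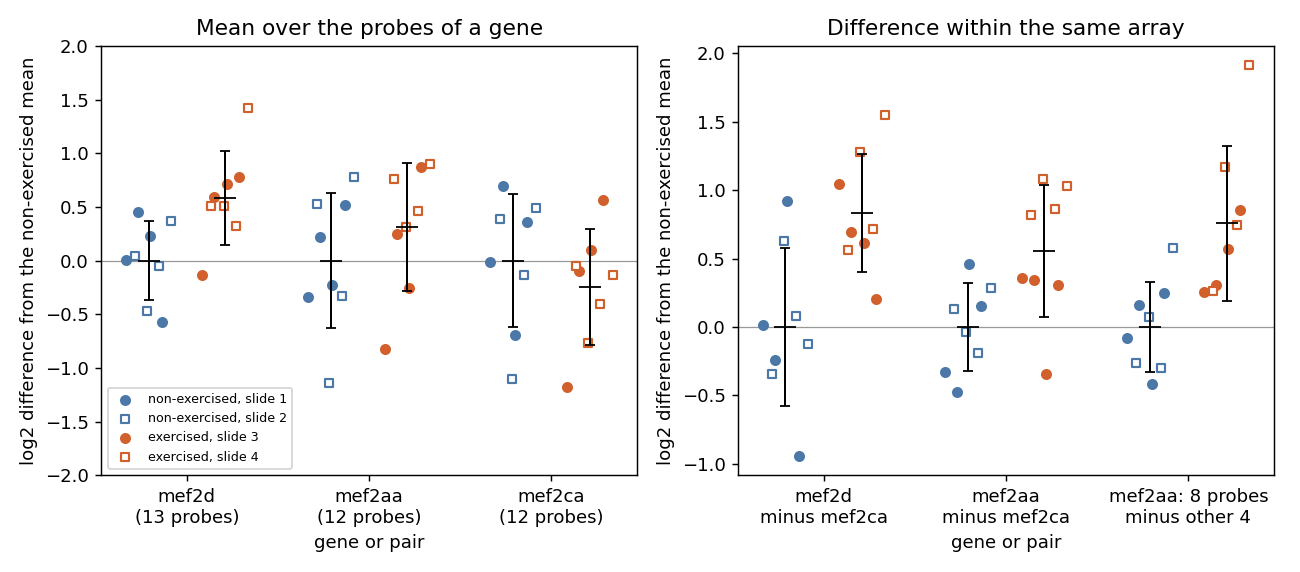
Left, the mean over the probes of each mef2 gene in each fish, as a log2 difference from the non-exercised mean; right, differences taken within the same array between genes and between both sets of mef2aa probes, with bars for the mean ± SD of 8 fish and filled and open marks for slides. All 8 exercised fish lie above 0 for mef2d minus mef2ca, and the groups still overlap.

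The probe of six4a, a homeobox factor that regulates myogenic genes together with Eya proteins, was above background on all 16 arrays. Its level ran from 0.96 to 3.43 with a median of 2.58 in exercised fish, and from 0.13 to 2.89 with a median of 1.92 in non-exercised fish. Of 8 exercised fish, 6 lay above the non-exercised mean and 1 above every non-exercised fish. The log2 fold change of 0.68 ± 0.42 did not pass the test (n = 8 and 8; limma adjusted p = 0.416). The slide means were 2.22 and 1.16 in non-exercised and 2.83 and 1.91 in exercised fish, so slides of 1 group differed by more than the groups did.

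In srfb, one of the zebrafish genes of serum response factor, the probe was above background on 4 arrays a group. It ran from −3.37 to −1.11 with a median of −1.96 in exercised fish and from −2.57 to −0.66 with a median of −1.88 in non-exercised fish. The log2 fold change was −0.28 ± 0.33 (n = 8 and 8; limma adjusted p = 0.669), and against all non-exercised fish it was 0.18 for slide 3 alone and −0.75 for slide 4 alone. The pax3a probe was not well above background on any array, and no fold change is given. Its signal averaged −3.55, −4.15, −4.01 and −2.31 on slides 1 to 4, and the negative controls also lay highest on slide 4.

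Other probes on the array carry no RefSeq accession but a description in the authors' table of differentially expressed probes, and 2 of those concern these factors. They were picked after their values were seen, and from a table that lists only probes past the authors' own test of these arrays, so their adjusted p is not independent evidence. LOLS01079 is described as pax3 mRNA, and which zebrafish pax3 gene it reads was not settled here. It ran from −1.35 to 0.44 with a median of −0.63 in exercised fish and from −4.93 to −1.66 with a median of −3.00 in non-exercised fish. All 8 exercised fish lay above all 8 non-exercised fish. It was above background on 5 exercised arrays, 4 on slide 3 and 1 on slide 4, and on 0 non-exercised arrays. On the reported scale, a bound on its rise in exercised fish was 2.70-fold (limma adjusted p = 0.00221). That bound uses the mean of all 8 exercised arrays, detected or not, and applies to the reported scale only. On each non-exercised array, that mean is set against the lowest signal of any probe well above background, or the probe's own signal where higher.

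The slide means of LOLS01079 were −2.66, −3.88, −0.35 and −0.91 on slides 1 to 4, and those of the negative controls were −3.80, −4.22, −4.60 and −2.72. The fit with the slide as a random block gave an adjusted p of 0.15, and normexp correction lowered the log2 difference to 1.25 (limma adjusted p = 0.0347). The RefSeq pax3a probe was not well above background on any of the 16 arrays, and since both probes may read different genes, they were not set against each other. Pax3 is also a gene of neural crest and pigment cells. Markers were counted by the brightest probe, by which 6.22% of all RefSeq-named genes were called. Of 7 markers of those cells with a probe, 6 were higher and 1 was called, mitfa, the melanocyte factor gene, at 0.99 ± 0.23 (n = 8 and 8; limma adjusted p = 0.0155) by 1 of its 6 probes, which did not pass after a median shift (limma adjusted p = 0.0867), while tyr was above background on no array. The summed linear level of the 7 ran from 8.84 to 23.7 in exercised and from 5.01 to 13.0 in non-exercised fish. Of 8 blood markers with a probe, 7 were higher and none was called, with a median of 0.77 on the log2 scale and a summed linear level from 227 to 1037 in exercised and from 76.7 to 374 in non-exercised fish. Higher too were 6 of 7 nerve, 4 of 5 skin, 2 of 2 endothelium and 9 of 11 fast muscle markers, but 0 of 5 slow muscle markers. Of all probes, 64.9% were higher. The part of any of these marker lists in the signal of LOLS01079, or in that of the list genes called higher below, was not tested. In muscle as a whole, more cells that express a gene and more RNA in each cell cannot be told apart.

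A_15_P116714 is described as serum response factor, and which zebrafish gene it reads was not settled here. It ran from −2.82 to −1.60 with a median of −2.17 in exercised fish and from −1.78 to −0.32 with a median of −0.59 in non-exercised fish. Of 8 exercised fish, 6 lay below all 8 non-exercised fish. It was above background on 8 non-exercised arrays and on 2 exercised arrays, both on slide 3. Its log2 fold change was −1.42 ± 0.27 (n = 8 and 8; limma adjusted p = 0.0042), and with so few exercised arrays above background its size is uncertain. Both exercised slides were low, at −2.20 and −2.18 against −0.56 and −0.98 on slides 1 and 2. With normexp correction the difference was −0.71 (limma adjusted p = 0.125), and with the slide as a random block the adjusted p was 0.252.

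**Figure D4:**
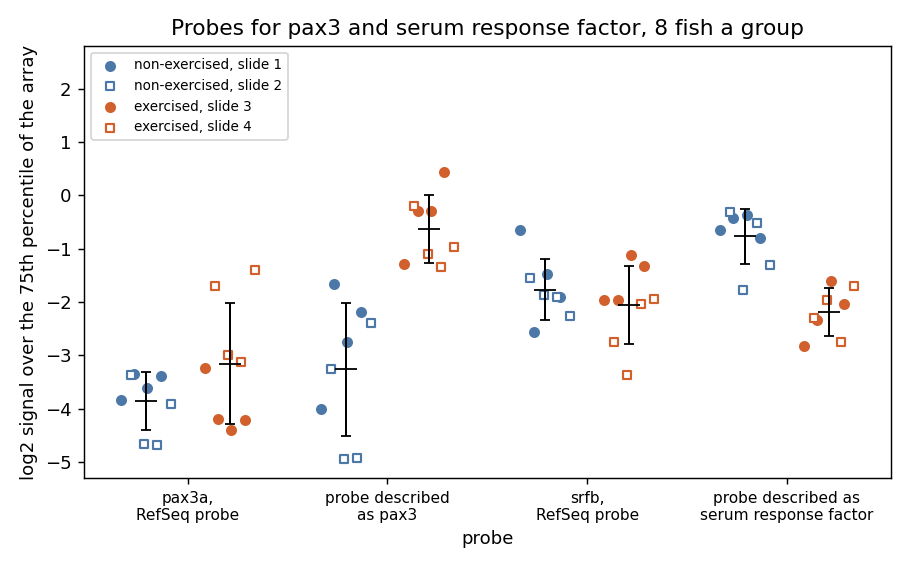
Log2 signal over the 75th percentile of the array in each fish for the RefSeq probes of pax3a and srfb and for the probes the authors described as pax3 and as serum response factor, with bars for the mean ± SD of 8 fish and marks for slides. The probe described as pax3 separates the groups completely, but the described probes were picked from a table of probes past the authors' own test. The groups overlap for the RefSeq probes, and that of pax3a was well above background on no array. Probes described alike may read different genes, so groups are compared only within a probe.

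The genes around the factors were counted from lists, by the brightest probe of each gene. Beside the counts of called genes in these lists, 6.22% of all RefSeq-named genes were called in either direction. Of 38 other myogenic regulators, 18 had a RefSeq-named probe, and 15 of these were higher and 3 lower. Their median was 0.48 on the log2 scale, against 0.26 over all probes and 0.03 over probes above background on all 16 arrays. Of the 18, 6 were above background on all 16 arrays. Only eya2 was called, which encodes a co-activator and phosphatase that works with Six4. It ran from −1.79 to −0.20 with a median of −0.75 in exercised fish and from −3.64 to −2.13 with a median of −2.61 in non-exercised fish. The groups did not overlap, and it passed the background flag on 6 arrays of exercised fish and 1 of non-exercised fish. Its log2 fold change was 1.87 ± 0.27 (n = 8 and 8; limma adjusted p = 0.000492), measured against a group of which 1 array was above background, so its size is uncertain. The value was 0.90 under normexp correction (limma adjusted p = 0.0408), and with the slide as a random block the adjusted p was 0.08.

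The genes six4b and meox1 did not pass the test. six4b was at 0.49 ± 0.33 (limma adjusted p = 0.474) and meox1 at 0.23 ± 0.26 (limma adjusted p = 0.663) on the log2 scale with 8 fish a group. pax7a, the satellite cell factor, was above background on no array. pax3b, pax7b, mef2ab, mef2b, mef2cb, srfa, lbx1a and lbx1b had no RefSeq-named probe and were not analysed here.

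Of 48 partners and repressors of the myogenic factors, 13 had a probe, 1 was called higher and 1 lower, and the median difference was 0.20 on the log2 scale. The gene carm1, whose product is an arginine methyltransferase and co-activator of Mef2 in mammals, was lower by its brightest probe at −1.37 ± 0.37 (n = 8 and 8; limma adjusted p = 0.0315), and 1 of its 3 probes passed. Signal was above background on 1 array of exercised fish and 6 of non-exercised fish, so the size is uncertain, and normexp correction gave −0.72. nfatc1, the calcineurin-regulated factor, was called higher (limma adjusted p = 0.0377) but was above background on 2 arrays of exercised fish and 0 of non-exercised fish, and no fold change is given. Neither passed under normexp correction (limma adjusted p = 0.137 and 0.489). hdac1 was at −0.56 ± 0.22 (limma adjusted p = 0.161), and the E-protein gene tcf12 at 0.24 ± 0.28 (limma adjusted p = 0.668).

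Targets of the factors moved in both directions. Of 51 targets and fusion genes, 27 had a probe, with 13 higher, 14 lower and a median of −0.05 on the log2 scale, and 1 was called higher and 3 lower. cav3, the muscle caveolin gene, was lower by both of its probes. Its brightest had a median of 4.06 and a highest value of 4.50 in exercised fish, below the lowest non-exercised value of 4.87, and its log2 fold change was −1.42 ± 0.26 (n = 7 and 8; limma adjusted p = 0.00358), with the outlier-flagged spot of exercised fish 5 left out. The sarcomeric actin gene actc2 was lower at −2.67 ± 0.63 (n = 8 and 8; limma adjusted p = 0.0162). The fast troponin T gene tnnt3a passed the background flag on 7 arrays of non-exercised fish and 0 of exercised fish, and it was at least 2.10-fold lower in exercised fish (limma adjusted p = 0.0135), by 1 of its 2 probes. casq1a, the calcium-binding calsequestrin of the sarcoplasmic reticulum, rose by 1.42 ± 0.40 (n = 8 and 8; limma adjusted p = 0.0385) and did not pass after a median shift (limma adjusted p = 0.0527). Myomaker, mymk, required for myoblast fusion, was at 0.19 ± 0.29 (limma adjusted p = 0.718).

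Of 23 satellite cell and precursor surface genes, 15 had a probe, with a median of 0.34 on the log2 scale, and 1 was called. fgfr1a, a fibroblast growth factor receptor gene, was higher at 0.97 ± 0.26 (n = 8 and 8; limma adjusted p = 0.0327), with 8 of 8 exercised fish above the non-exercised mean. It did not pass after a median shift (0.72, limma adjusted p = 0.147). Nor did it pass under normexp correction or for slide 3 alone (limma adjusted p = 0.0849 and 0.196), but it did under quantile normalisation (limma adjusted p = 0.00994). The M-cadherin gene cdh15, counted among the fusion genes, was at −0.74 ± 0.39 (limma adjusted p = 0.309). With the slide as a random block, none of the list genes named as called here passed.

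The genes whose fish-to-fish pattern was most like each factor were found by Pearson r within slides, over 16 arrays and 2179 RefSeq-named probes detected on all of them. Arrays of a slide share its processing, and no test was made. For myod1 they were hnrnpa0a at r = 0.92, ywhag2 at 0.91 and creg2 at 0.90. For mef2aa they were ankrd6b at 0.95, mstnb, which encodes a myostatin, at 0.91 and mcamb at 0.91. For mef2ca they were the calmodulin gene calm1a at 0.90, the calcium channel subunit gene cacng1a at 0.90 and dusp16 at 0.89. The closest for mef2d were stom, elocb and zfand5a, at 0.79, 0.79 and 0.78, and for six4a bola1, the glycogenin gene gyg1a and myoz1b, at 0.91, 0.89 and 0.88.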

How the data were processed

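Fast muscle of 16 zebrafish, 8 exercised and 8 non-exercised, was measured on a custom Agilent 4 × 44K array. The deposited scanner files hold intensities on a linear scale, extracted by the authors in Feature Extraction 10.7.3.1, among them a processed signal after background subtraction. The deposited table of 2985 probes holds the authors' log2 values per array, scaled to the 75th percentile and centred by probe, and values recomputed here differed from them by a median of 0.0011. Its fold changes and p-values were not used.

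The log2 processed signal minus the array's 75th percentile over 43803 non-control probes was analysed. Spots with an outlier flag (49 to 892 per array) were left out, and none was saturated. The probes were tested with limma 3.58.1 (lmFit and eBayes, R 4.3.3) without covariates. Summed marker levels kept outlier spots. Signal over background limits the precision for dim probes. Symbols came from unambiguous RefSeq accessions of the GRCz12tu gene table, for 9104 probes. The array's own build differs, and no coordinates were used.

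All members were named with every probe. The brightest probe stood for a gene, and of the lists the called genes and set relatives were named, with further list genes (hdac1, tcf12, mymk, cdh15 and tyr) added after their values were seen. Some genes are not reported here by name. The members and lists were chosen with earlier results of these data known. The fit was checked on simulated data drawn independently for each array, so that check does not cover slide effects. Alternatives were other background corrections, scalings, filters and tests, array weights, a slide or replicate block, each fish left out, and each exercised slide alone.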

Additional observations from a re-analysis of the deposited data

How the results depend on the processing

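The count of member probes called higher, 0 in the reported fit, was the result that moved most. It was 6 under quantile normalisation, 9 under cyclic loess, 4 over probes above background on at least 8 arrays (6.23% of all probes tested were called higher), 5 over those above background on all 16 (8.49%), 4 with array weights (7.15%), 2 by the methods' t-test after adjustment (4.51%) and 6 at its unadjusted threshold of 0.01 (6.58%). With the exercised fish of slide 4 alone it was 5, where 33.2% of all probes were called higher, and leaving out each fish gave 0 to 4, with 4 without exercised fish 1. These were mef2d probes, except 1 of mef2aa under cyclic loess, and 2 of mef2aa and the undetected pax3a probe with slide 4. By the brightest probe, 1 gene was called under quantile normalisation, cyclic loess, the unadjusted t-test (mef2d each time) and slide 4 alone (pax3a). The causes were not tested. The count of member probes called higher stayed at 0 under the median shift, normexp, no background correction, slide 3 alone, the slide block and with outlier spots kept. No member probe was called lower under any alternative.

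Some uncalled differences changed sign. For myod1, the log2 fold change was 0.016 under cyclic loess and ran from −0.24 to 0.0070 over the fish left out. For myog it was 0.015 with array weights. For myf6 it was 0.043 without background correction, 0.090 with normexp, 0.12 for slide 3 alone, and −0.23 to 0.21 over the fish left out. For slide 3 alone, srfb was at 0.18 and the undetected pax3a at −0.16, and pax3a was at −0.11 with array weights. With normexp, the mef2ca probes LOL03506, LOL01251 and LOL01787 were at 0.019, 0.033 and 0.094. For slide 3 alone, the mef2aa probes LOL03494 and LOL03498 were at −0.0049 and −0.12.

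Same-numbered fish correlated at 0.029 to 0.415, each above its mean with other numbers (−0.068 to 0.018), but the correlation was over 0.1 for 5 of 8 numbers and 2 of 8 matched best with their own, so the numbers were not taken as pairs. With the replicate number as a block, 0 member probes were called in either direction. Only 27 of the 44 probes passed the background flag on every array, so statements on myf5, myf6, srfb and pax3a are limited by signal.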
